A study of Rattus norvegicus with 9 samples.

Results

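The genes described here are 7 erythroid genes, Alas2, Hbb, Slc4a1, Gata1, Klf1, Rhag and Epb42, measured in rat liver after total-body irradiation (TBI). They were chosen as array probes whose RefSeq transcript belongs to 1 of these symbols, which gave 7 of the 13432 genes that could be named on the array, with 9 probes between them. Livers came from male Wistar rats in 3 groups of 3. Control rats were not irradiated and are labelled as normal controls, TBI rats received 6.5 Gy from a cobalt source, and HSC + TBI rats were given Hong Shan Capsule (HSC), an oral herbal preparation, once a day for 3 days and then the same 6.5 Gy. Every liver was collected 24 h later, and whether it was flushed of blood is not given in the sources used here. The HSC dose is written as 10 g/kg per day in the series text and in the study's methods, and as 30 mg/kg per day in the sample labels. No array group received HSC without radiation, so HSC can be compared only on top of the radiation. Each liver sample had its own one-colour array. P-values measure the spread between these 3 rats per group.

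Red cells are built from nucleated precursors, in which the transcription factors Gata1 and Klf1 switch on the genes of heme synthesis, globin and the red cell membrane. The nucleus is then expelled, and the young red cell, the reticulocyte, carries leftover globin and Alas2 messenger RNA in the blood until it matures. The adult rat liver is filled with blood but makes few red cells, so whole liver RNA includes that of circulating red cells. In a bulk sample, fewer cells of a type and less RNA per cell cannot be told apart.

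Levels are given as log2 of the array signal after quantile normalization. A spot was well above background where the scanner software marked it so, and a probe was tested where 1 or more groups had it well above background in all 3 rats. On this criterion 4 of the 7 genes were tested, Alas2, Hbb, Slc4a1 and Epb42. Gata1, Klf1 and Rhag were not. A gene was called where limma gave an adjusted p under 0.05 and a fold of at least 1.5. The share of probes above background was 56.6% to 59.3% in controls, 63.6% to 69.5% in TBI and 58.7% to 60.5% in HSC + TBI. Controls shared 1 slide, TBI rats a second one, and HSC + TBI rats lay on a further 2, so slide and group cannot be told apart.

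Mean levels of the heme gene Alas2 and the globin gene Hbb were below control in both irradiated groups, and those of the membrane genes Slc4a1 and Epb42 were above control in both. None of the 3 genes measured above background in every rat, Alas2, Hbb and Slc4a1, passed the test, and Epb42, which did in TBI, was not above background in controls 2 and 3. Of the 4 tested genes, 1 was called in TBI against control, where 7.25% of all 25369 tested probes were called. The count was 0 in HSC + TBI against control, where 3.23% of probes were called, and 0 in HSC + TBI against TBI, where 0.796% were. At an unadjusted p under 0.05 by limma the counts were 3, 3 and 0 of 4, beside 25.5%, 19.6% and 16.3% of all probes. The methods' t-test, with its own threshold of an unadjusted p under 0.05 and a 1.5-fold change, gave 1, 3 and 0, and after Benjamini-Hochberg adjustment 0 in each. Levels of the 2 groups did not overlap for 2 of 4 genes in TBI against control, for 3 of 4 in HSC + TBI against control and for 0 of 4 in HSC + TBI against TBI, beside 28.9%, 31.7% and 21.4% of all probes. Epb42 entered the test only because its irradiated groups were above background, so these counts are a description. A moderated F-test over the 3 groups called 0 of the 4 genes, beside 6.89% of all probes. At an unadjusted p under 0.05 by the F-test, 3 of them differed, and the methods' one-way analysis of variance at an unadjusted p under 0.01 gave 0. The shares of all probes at these unadjusted thresholds are not given here, and the 6.89% is for the adjusted p.

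**Figure D1:**
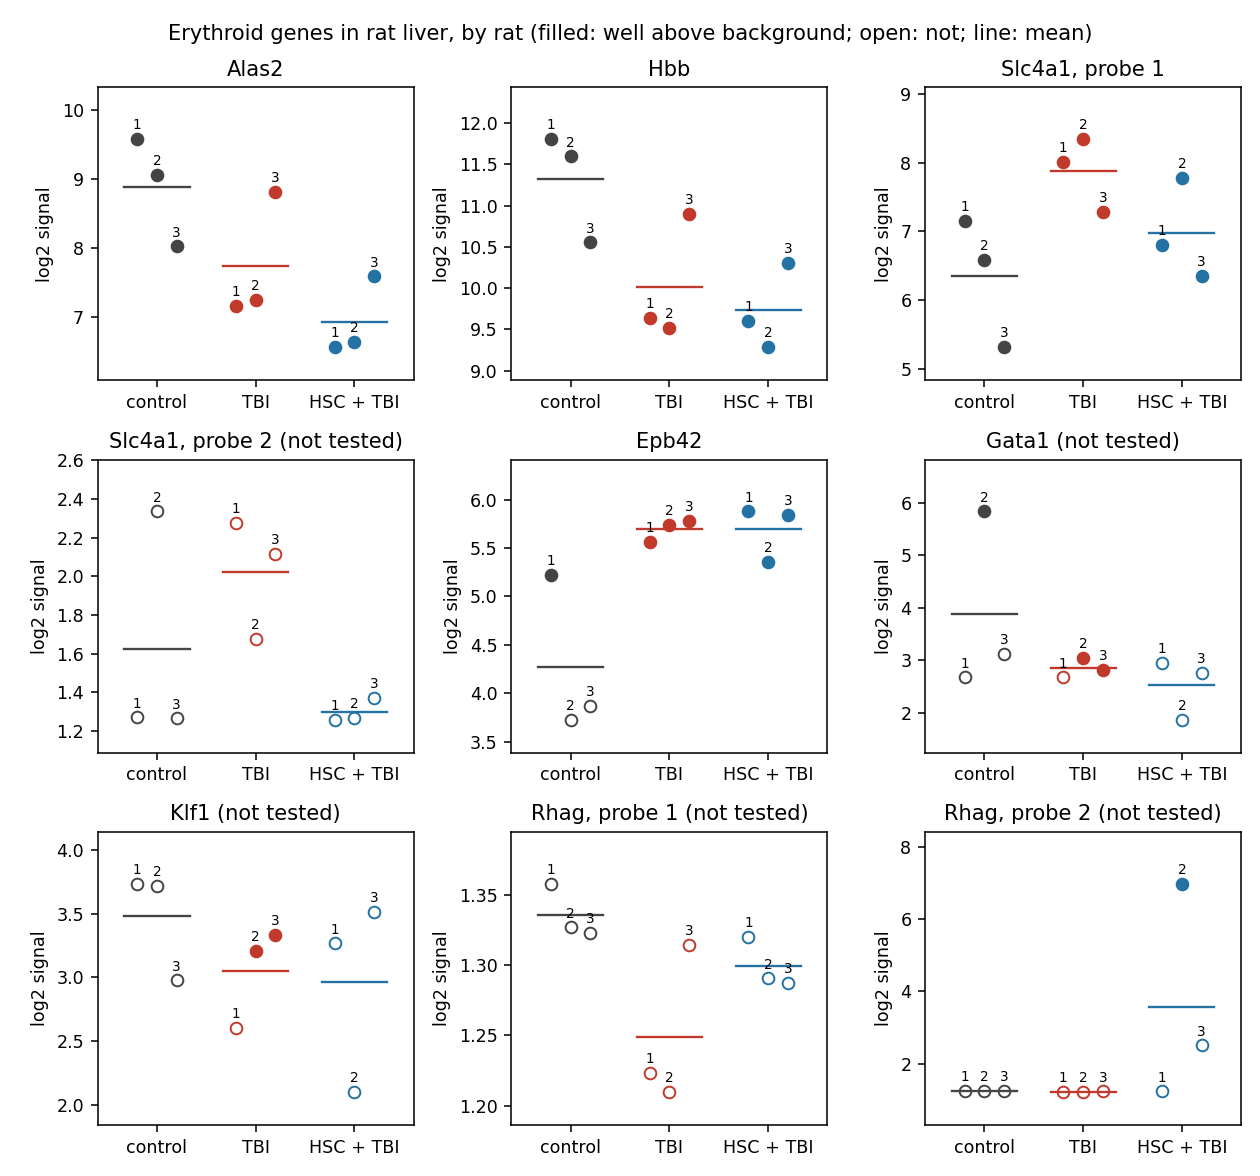
Log2 signal of all 9 probes of the 7 erythroid genes in each of the 9 rats, by group. Filled points were well above background, open points were not, lines are group means and numbers are rats. Alas2 and Hbb were highest in controls 1 and 2 and had 1 high rat in each irradiated group, whereas Epb42 was low in controls 2 and 3 and lay between 5.36 and 5.88 in the 6 irradiated rats.

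Alas2 encodes the erythroid form of 5-aminolevulinate synthase, the first enzyme of heme synthesis. Its log2 signal was 9.57, 9.06 and 8.02 in controls 1 to 3, 7.15, 7.25 and 8.81 in TBI rats 1 to 3, and 6.56, 6.63 and 7.59 in HSC + TBI rats 1 to 3. All HSC + TBI rats lay below all controls, while TBI rat 3 lay inside the control range. The group means were 8.88 ± 0.79 (SD, n = 3), 7.74 ± 0.93 and 6.93 ± 0.57. The difference from control was -1.15 ± 0.54 (SE) in TBI, with an adjusted p of 0.23, and -1.96 ± 0.54 in HSC + TBI, which is 3.88-fold lower, with an adjusted p of 0.092. Neither passed the threshold. HSC + TBI minus TBI was -0.81, with a 95% interval from -2.04 to 0.42 and an adjusted p of 0.50.

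Hbb encodes a beta chain of adult hemoglobin. Its log2 signal was 11.81, 11.60 and 10.56 in controls, 9.64, 9.52 and 10.90 in TBI rats, and 9.61, 9.29 and 10.31 in HSC + TBI rats. The order of groups was that of Alas2, again with the third TBI rat inside the control range and every HSC + TBI rat below the controls. The TBI mean was 2.46-fold lower than control (log2 difference -1.30 ± 0.46 SE, adjusted p = 0.12) and the HSC + TBI mean 3.00-fold lower (-1.59 ± 0.46, adjusted p = 0.11). HSC + TBI minus TBI was -0.29, with an interval from -1.33 to 0.76, which spans 0. On the current annotation Hbb lies in a row of beta-type globin genes with Hbb-bs, Hbb-b1, Hbbl1, Hbb-b2, the pseudogene Hbe1l-ps1, Hbg1, Hbe2 and Hbe1, and near-identical copies may share a probe's signal, so the value cannot be assigned to 1 copy.

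Leaving out TBI rat 3 moved the Hbb difference of TBI from control to -1.74 (adjusted p = 0.040), past the threshold, and that of Alas2 to -1.68 (adjusted p = 0.065). Over all alternatives the adjusted p ranged from 0.0031 to 0.33 for Hbb and from 0.010 to 0.46 for Alas2. Both low ends came from the fit with slide as a random block. Apart from that fit the lowest were the 0.040 and 0.065 without TBI rat 3. Without that rat the F-test called both genes (adjusted p 0.047 and 0.049).

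Slc4a1 encodes band 3, the chloride-bicarbonate exchanger of the red cell membrane. On the probe that was above background on all 9 arrays, the log2 signal was 7.15, 6.58 and 5.31 in controls, 8.01, 8.34 and 7.28 in TBI rats, and 6.80, 7.78 and 6.35 in HSC + TBI rats. Every TBI rat was above every control, and HSC + TBI rats overlapped both. The TBI mean was 2.89-fold above control (1.53 ± 0.52 SE, adjusted p = 0.11) and the HSC + TBI mean 1.54-fold above it (0.63 ± 0.52, adjusted p = 0.56). HSC + TBI minus TBI was -0.90, with an interval from -2.10 to 0.29 (adjusted p = 0.44). With the replicate number as a block, TBI against control passed for this probe (adjusted p = 0.036), in a range over alternatives from 0.0031 to 0.30. The low end came from the fit with slide as a random block, and the next lowest was the 0.036. A second Slc4a1 probe was not well above background on any array, with levels from 1.26 to 2.34, so the pattern rests on 1 probe.

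Epb42 encodes protein 4.2, which ties band 3 to the membrane skeleton. Its log2 signal was 5.22, 3.73 and 3.87 in controls, of which only the first was above background, 5.57, 5.74 and 5.78 in TBI rats and 5.88, 5.36 and 5.84 in HSC + TBI rats, all above background. The 6 irradiated rats all lay above the 3 controls. The log2 difference of TBI from control was 1.42 ± 0.36 (SE), with a 95% interval from 0.60 to 2.24 and an adjusted p of 0.047, which made the 1 call among these genes. Since 2 of the 3 controls were not above background and the probe was tested only through its irradiated groups, the size of this difference is uncertain and the call is given as a description. In HSC + TBI the difference was also 1.42 ± 0.36, with an adjusted p of 0.074. HSC + TBI and TBI differed by 0.00, with an interval from -0.82 to 0.82. The call in TBI was lost in 8 of the 9 fits that left out 1 rat, all but the one without control 1, with differences from 1.15 to 1.89 and adjusted p from 0.0023 to 0.15. Without control 1, Epb42 was also called in HSC + TBI (1.89, adjusted p = 0.0023). After normexp background correction the TBI difference was 0.34 (adjusted p = 0.055).

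Comparisons of 3 rats with 3 cannot give an exact permutation p below 0.10. The 2-sided exact p was at this floor for Slc4a1 and Epb42 in TBI against control, and for Alas2, Hbb and Epb42 in HSC + TBI against control.

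**Figure D2:**
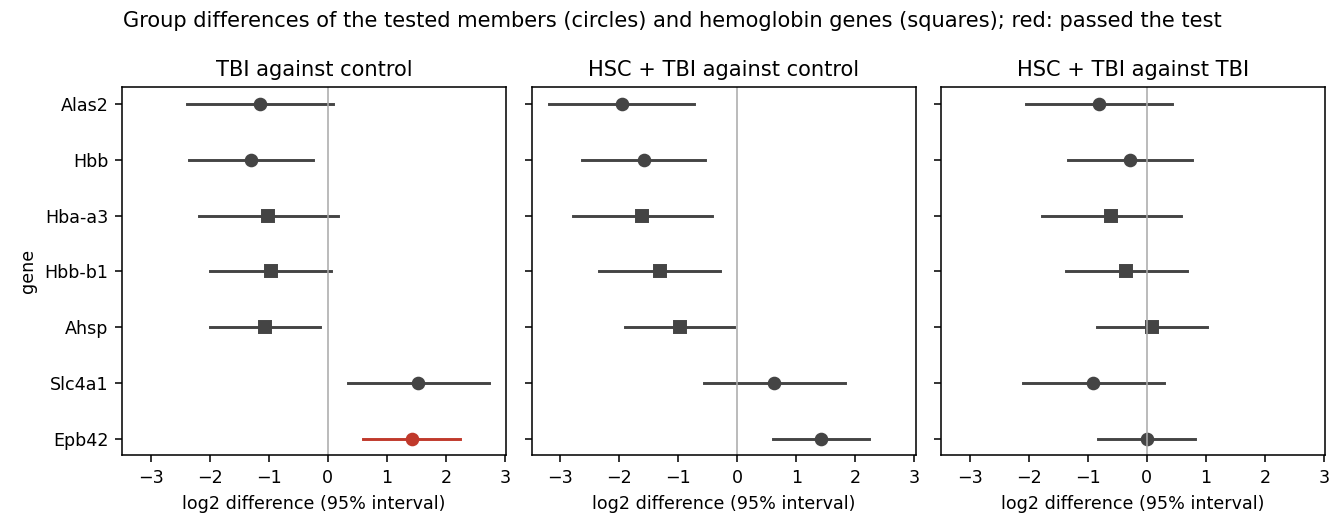
Log2 differences between groups with 95% limma intervals for the 4 tested erythroid genes (circles) and 3 hemoglobin genes (squares). Alas2 and the globin genes lie to the left of 0 in both comparisons with control and Epb42 and Slc4a1 to the right, and only Epb42 in TBI against control, in red, passed the test, with controls 2 and 3 not above background.

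Gata1 and Klf1 are transcription factors that drive the erythroid program, and their messages are made in nucleated precursors. Gata1 was well above background in control 2, at 5.83, and in TBI rats 2 and 3, at 3.05 and 2.82, and not in the other 6 rats. Klf1 was well above background only in TBI rats 2 and 3, at 3.21 and 3.33. The TBI arrays had the highest share of probes above background, and Klf1 signals in controls 1 and 2 were higher than in those rats, at 3.73 and 3.72, without passing. Both factors were at or below the limit of detection in most rats and no fold is given. Rhag, which encodes the Rh-associated glycoprotein of the red cell membrane, was measured by 2 probes. The first was not well above background on any array. The second was so only in HSC + TBI rat 2, at 6.98, against 1.22 to 1.26 in 7 rats and 2.50 in HSC + TBI rat 3. That array was the only 1 of its group on its slide, and the first Rhag probe read 1.29 there.

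Alas2 and Hbb followed the same rats within each group. With each level expressed as its deviation from the group mean, the 2 genes correlated over the 9 rats with Pearson r = 0.98 and Spearman rho = 0.90, and r was 0.96 without control 1 and TBI rat 3. Hba-a3, an alpha globin, Hbb-b1, another beta globin, and Ahsp, the chaperone that holds free alpha globin, were compared with them after their values had been seen. Over the 10 pairs among these 5 genes r ran from 0.74 to 0.98. In all 5 genes control 3 was the lowest control, TBI rat 3 the highest TBI rat and HSC + TBI rat 3 the highest rat of its group. Slc4a1 and Epb42 shared only part of this order. Slc4a1 was also lowest of the controls in control 3, but was lowest in rat 3 of both irradiated groups. Epb42 was also highest of its group in TBI rat 3, but was lowest in control 2 and highest in HSC + TBI rat 1. The r of Slc4a1 and Epb42 with Alas2 was -0.01 and 0.50, and with each other 0.27. These correlations are a description, since all genes were read from the same 9 arrays and globin copies may share signal.

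**Figure D3:**
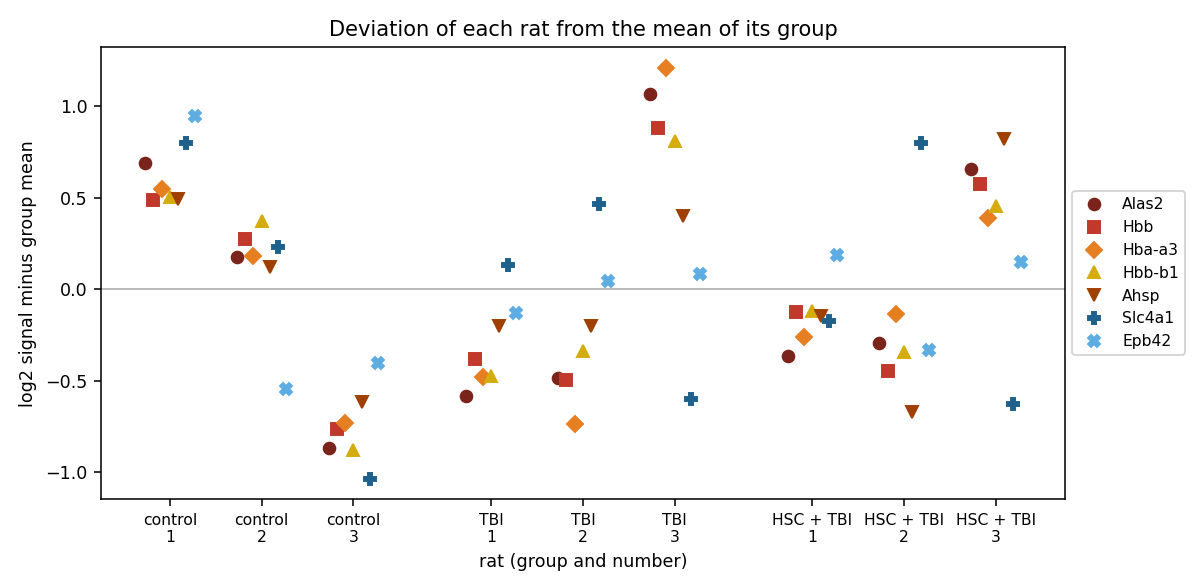
Log2 signal of each rat minus the mean of its group, for the 4 tested erythroid genes and 3 hemoglobin genes. Alas2, Hbb, Hba-a3, Hbb-b1 and Ahsp lie together in each rat, below 0 in control 3 and above 0 in TBI rat 3 and HSC + TBI rat 3, whereas Slc4a1 is below 0 in those 3 rats.

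Rats of 1 group differed from each other by amounts that varied between genes and groups. Within controls the highest rat exceeded the lowest 2.94-fold for Alas2, 2.38-fold for Hbb and 2.43-fold for Hba-a3. Within TBI rats the ratio was 3.15 for Alas2 and 3.85 for Hba-a3, and within HSC + TBI rats 2.04 and 1.57. Epb42 ranged 2.82-fold within controls, 1.16-fold within TBI and 1.44-fold within HSC + TBI. The summed signal of the 6 tested hemoglobin-list genes was 58200 to 145100 units in controls, 34430 to 105300 in TBI and 30860 to 48380 in HSC + TBI.

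The promoter windows of the 3 tested genes that RefSeq provides are shown because Alas2 and Hbb varied together between rats and Epb42 less so. Each runs from 250 bases before to 50 bases after the transcript start on GRCr8, and capitals mark letters of the GATA motif (the letters AGATAA, the letters AGATAG, the letters TGATAA or the letters TGATAG) or of the CACCC box bound by Klf1 and its relatives (CCNCNCCC), each sought on both strands. The Alas2 window is at chrX:22895200-22895499, plus strand, and lies inside the annotated span of the gene. The Hbb window is at chr1:167663672-167663971, minus strand, and the Epb42 window at chr3:128451634-128451933, minus strand.
Alas2: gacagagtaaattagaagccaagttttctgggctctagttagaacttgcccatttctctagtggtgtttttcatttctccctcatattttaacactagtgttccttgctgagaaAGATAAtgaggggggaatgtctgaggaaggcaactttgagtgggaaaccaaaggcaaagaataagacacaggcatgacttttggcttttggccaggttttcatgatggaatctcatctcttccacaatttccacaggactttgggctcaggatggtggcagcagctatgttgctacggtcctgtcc
Hbb: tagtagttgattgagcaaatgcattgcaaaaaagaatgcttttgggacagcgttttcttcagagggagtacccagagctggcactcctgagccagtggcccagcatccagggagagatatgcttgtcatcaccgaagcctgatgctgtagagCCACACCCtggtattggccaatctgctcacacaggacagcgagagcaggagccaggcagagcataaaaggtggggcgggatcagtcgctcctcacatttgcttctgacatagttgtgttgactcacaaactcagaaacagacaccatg
Epb42: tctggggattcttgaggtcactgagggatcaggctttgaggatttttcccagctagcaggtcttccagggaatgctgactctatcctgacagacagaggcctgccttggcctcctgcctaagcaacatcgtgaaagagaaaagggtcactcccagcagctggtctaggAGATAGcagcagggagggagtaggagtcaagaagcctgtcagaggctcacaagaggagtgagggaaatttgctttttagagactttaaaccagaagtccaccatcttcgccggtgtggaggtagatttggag
Alas2 held 1 GATA match, Epb42 held 1 and Hbb held 1 CACCC match. Of the 6 erythroid genes with a window, 4 held a GATA match (Alas2, Epb42, Rhag and Klf1) and 2 a CACCC match (Hbb and Gata1), and no match of one motif overlapped the other. Among all 33469 windows of this length, 30.3% held a GATA match and 46.3% a CACCC match. These are matches of letters only.

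The genes with expression most like the mean of the 4 tested genes, by Pearson r over the 9 rats, were Gxylt1 (0.95), Arhgap18 (0.88), Slc27a2 (0.86), Acaa2 (0.84), Podxl and Zfp593 (0.83), Pole (0.82) and Pex11a (0.81), among 10965 probes. That mean joins genes of opposite direction. Each gene's own nearest neighbours, added after the values were seen, differed. For Alas2 they were Hba-a3 (0.98), Hbb-b1 (0.98) and Hbb (0.97), and for Hbb they were Hbb-b1 (0.99), Alas2 (0.97) and Hba-a3 (0.96). For Slc4a1 they were Rps24 (0.98), Prss8 (0.95) and Atrx (0.95), and for Epb42 Naa38, Rpl27a and Nudcd2 (each 0.97), none of which is in the erythroid lists. At least r = 0.9 was reached by 11 probes for Alas2, 17 for Hbb, 12 for Slc4a1 and 70 for Epb42.

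Beyond these 7 genes, 73 further red cell genes were listed in 5 groups, of which 51 had a named probe and 43 were tested. One gene, Tfrc, was called in TBI against control and the same gene in HSC + TBI against control, and 0 were called in HSC + TBI against TBI, beside 7.25%, 3.23% and 0.796% of all probes. At an unadjusted p under 0.05 by limma the counts were 8, 7 and 8 of 43, beside 25.5%, 19.6% and 16.3% of all probes, against which the same counts for each list are also to be read. By the methods' t-test at its own threshold they were 3, 5 and 1, with no share of all probes given. The median log2 difference over the 43 genes was -0.03, 0.02 and 0.09, beside -0.01, 0.05 and 0.06 over all tested probes, and over the 4 tested main genes it was 0.14, -0.48 and -0.55. In both comparisons with control those 4 genes were 2 above and 2 below 0.

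Tfrc encodes transferrin receptor 1, which takes up iron in erythroblasts and also in many other cells. Its log2 signal was 9.83, 9.88 and 10.02 in controls, 11.004, 11.15 and 11.15 in TBI rats, and 11.34, 11.46 and 11.35 in HSC + TBI rats. The groups did not overlap. Tfrc rose 2.28-fold in TBI (1.19 ± 0.11 SE, adjusted p = 0.00088) and 2.78-fold in HSC + TBI (1.47 ± 0.11, adjusted p = 0.00035). HSC + TBI minus TBI was 0.29 (adjusted p = 0.24). Of 2 dimmer Tfrc probes, one rose in both comparisons with control (1.34 and 1.70) and the other was called in HSC + TBI only (1.38, adjusted p = 0.019), with 0.69 and an adjusted p of 0.11 in TBI. The lists were chosen with earlier results of these same rats known, so Tfrc is not independent evidence for its list.

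Of the 5 red cell lists the hemoglobin chains had the lowest medians against control, -0.99 in TBI and -1.14 in HSC + TBI, with 0 of 6 tested genes called in either, 1 and 3 at an unadjusted p under 0.05 by limma, and 0 and 2 by the methods' t-test. Hba-a3 was 15.87 ± 0.66, 14.86 ± 1.06 and 14.26 ± 0.35 in control, TBI and HSC + TBI (SD, n = 3), and its difference from control was -1.01 and -1.61 (adjusted p 0.26 and 0.14). Without TBI rat 3 it was called in both, at -1.61 and -1.61 (adjusted p 0.0355 and 0.0449), and Nt5c3a was called in TBI (-0.63). Hbe1 was called there too, with no remaining TBI rat above background. Hbb-b1 differed from control by -0.96 and -1.31 (adjusted p 0.22 and 0.16), and Ahsp by -1.06 and -0.98 (adjusted p 0.15 and 0.23). Embryonic Hbe2 and Hbg1 differed by -0.26 to 0.26 across the 3 comparisons. Hbe1 was above background in all 3 controls, in TBI rat 3 alone of its group, and in no HSC + TBI rat. Its signal in HSC + TBI was at least 2.03-fold below control, but it was not called (adjusted p = 0.34). The gene was tested only through the controls.

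**Figure D4:**
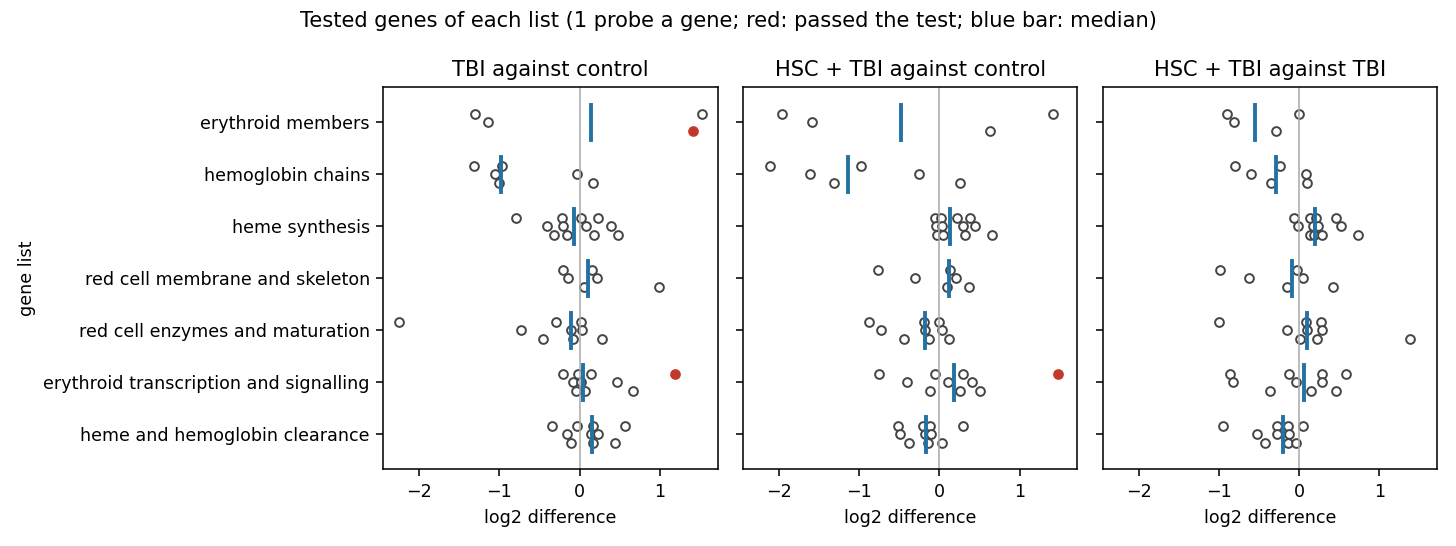
Log2 differences of the tested genes of each red cell list and of the heme clearance list in the 3 comparisons, 1 probe a gene, with the median as a bar and called genes in red. The hemoglobin chains lie furthest left in both comparisons with control (medians -0.99 and -1.14), and Epb42 and Tfrc are the called genes.

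Heme synthesis was measured for all 12 listed enzymes and transporters, and 0 were called in any comparison, with 2 at an unadjusted p under 0.05 by limma in each and 1, 1 and 0 by the methods' t-test. Alas1, the form of 5-aminolevulinate synthase used by hepatocytes and other non-erythroid cells, differed from control by 0.48 in TBI and 0.65 in HSC + TBI (adjusted p 0.13 and 0.082), opposite in sign to Alas2. Alad, the next enzyme, differed by 0.18 and 0.32, Urod by -0.15 and 0.03, and Tmem14c by 0.02 and -0.05. The median of the list was -0.07 in TBI and 0.13 in HSC + TBI against control, and 0.20 in HSC + TBI against TBI. Signal from these enzymes is shared with hepatocytes.

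Of the red cell membrane and skeleton list 9 of 18 genes had a named probe and 6 were tested, with 0 called in any comparison 0, 0 and 2 at an unadjusted p under 0.05 by limma and 0, 0 and 1 by the methods' t-test. The brightest, the amino acid transporter Slc43a1, the water channel Aqp1, glycophorin C (Gypc) and Xk, differed from control by -0.21 to 0.15 in TBI and -0.30 to 0.21 in HSC + TBI. The other two, the blood group genes Rhd and Icam4, named here to complete the list, differed by 0.22 and 0.99 in TBI (adjusted p 0.76 and 0.29) and by -0.77 and 0.37 in HSC + TBI. Tmod1 was above background in 1 rat.

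Red cell enzymes and maturation genes gave 0 calls among 9 tested, with 4, 0 and 1 at an unadjusted p under 0.05 by limma and 1, 0 and 0 by the methods' t-test. The mitophagy receptor Bnip3l differed from control by -0.29 and -0.20 in TBI and HSC + TBI, Prdx2 by 0.03 and -0.12, Car2 by -0.08 and 0.00 and the pyrimidine nucleotidase Nt5c3a by -0.45 and -0.18. Hemgn, a nuclear protein of erythroid precursors, was not well above background on any array. Among 10 tested genes of erythroid transcription and signalling, with 1, 2 and 3 at an unadjusted p under 0.05, Tfrc was the called gene. Tfr2 differed from control by -0.03 and 0.26, Stat5a by 0.01 and -0.12, and Jak2, the kinase of the erythropoietin receptor, by 0.06 and -0.76 (adjusted p 0.90 and 0.15). Kit was above background in 1 rat and Epo in none.

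Markers of other blood and liver cells were read in the same livers. Of 7 tested lymphocyte markers, the T cell adhesion gene Cd2 and the B cell receptor gene Cd79b were called lower in TBI. They were at least 5.13-fold and 4.97-fold lower (adjusted p 0.0012 and 0.0032), beside 7.25% of all probes called. Cd79b was called also in HSC + TBI, at least 2.90-fold lower (adjusted p = 0.0026), beside 3.23% of all probes. Both genes were tested only through the controls, so these calls are a description. Of the 7 markers, 3 lay above control in TBI, 1 of them at an unadjusted p under 0.05 by limma. Cd2 was above background in HSC + TBI rat 1 alone of the 6 irradiated rats, so no fold is given between HSC + TBI and TBI, although limma called it (adjusted p = 0.031). Of 7 tested mast cell and eosinophil markers, the proteases Mcpt1, Cpa3 and Tpsab1 were called lower in TBI, Cpa3 and Tpsab1 by log2 differences of -0.72 and -1.04. Mcpt1 was above background in 1 TBI rat only, so its size there is not given. It was tested only through the controls, so its calls are a description. Of these 7 markers, 2 lay above control in TBI. Mcpt1 and Cpa3 were called lower also in HSC + TBI, at least 7.99-fold and 1.57-fold. Limma also called Cpa3 between HSC + TBI and TBI, but its TBI mean of 3.55 was no higher than the lowest signal above background on the HSC + TBI arrays, so no decrease is shown there. Of 6 tested megakaryocyte and platelet markers, the platelet glycoprotein Gp1ba was called in TBI (adjusted p = 0.020). It was above background in 1 control and in all 6 irradiated rats, and was tested only through the latter, so no size is given. Neutrophil, Kupffer cell and hepatocyte markers gave 0 calls in the 3 comparisons among 4, 9 and 12 tested genes. At an unadjusted p under 0.05 by limma, all 9 Kupffer cell markers were lower in HSC + TBI than in TBI, beside 16.3% of all probes, and 1 and 5 differed in TBI and HSC + TBI against control, beside 25.5% and 19.6%. Over TBI and HSC + TBI against control, then HSC + TBI against TBI, the neutrophil counts were 0, 1 and 2 and the hepatocyte counts 1, 1 and 0 in the same order of comparisons, with the same shares of all probes. The lymphocyte counts were 4, 4 and 3 of 7. Mast cell and eosinophil counts were 5, 5 and 1 of 7, and platelet counts 1, 1 and 2 of 6. By the methods' t-test the counts were 0, 4 and 7 for Kupffer cells, 0, 0 and 2 for neutrophils and 0 throughout for hepatocytes.

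All 12 hepatocyte markers were above background in every rat, as the liver label requires. Summed over each list, lymphocyte marker signal was 657.8 to 820.9 units in controls, 480.3 to 752.5 in TBI and 442.1 to 529 in HSC + TBI, and Kupffer cell marker signal 90970 to 142200, 95440 to 178400 and 66790 to 72230. Hepatocyte marker signal was 2078000 to 2126000, 2022000 to 2223000 and 2080000 to 2176000. TBI rat 3 had the highest lymphocyte and platelet sums of its group, at 752.5 and 895.5, as it had for hemoglobin. Control 3 had the lowest platelet sum of the controls (486.4, beside 493.6 in control 2). HSC + TBI rat 3 had the highest of its group (471.2), again as for hemoglobin. For lymphocytes control 1 was lowest of the controls and HSC + TBI rat 2 highest of its group. Neutrophil marker sums went another way, being highest in control 3 (709.5), TBI rat 2 (819.2) and HSC + TBI rat 2 (445.1) of their groups. Mast cell and eosinophil sums were lowest in control 3 (1639) of the controls. In the irradiated groups they were highest in TBI rat 1 (1433) and HSC + TBI rat 1 (1135). Between groups the platelet sums did not follow hemoglobin, at 486.4 to 559.7 in controls, 545.4 to 895.5 in TBI and 401.6 to 471.2 in HSC + TBI. All 6 tested platelet markers lay above control in TBI, where 5 of the 6 hemoglobin-list genes lay below it. Among defining markers Cd3e and Cd5 were above background on no array. The part of blood content in the differences of Alas2 and Hbb was not tested.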

How the data were processed

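Liver RNA of 9 rats was measured on one-colour Agilent arrays of 41012 gene probes. Per the file headers, the authors' scanner software, Feature Extraction 10.7.3.1, gave for each spot a background-subtracted signal intensity and flags. The authors also deposited a table of log2 values after quantile normalization, used as an alternative, whose columns have medians of 4.88 and which differed from the values used here by a median of 0.03. From the deposited intensity, log2 values with a floor of 1 were quantile-normalized and averaged per probe, with outlier spots left out, and the 25369 probes that passed background in every rat of 1 or more groups went into limma 3.58.1 in R 4.3.3, as 1 fit of 3 group means with Benjamini-Hochberg adjustment. Probes were named through RefSeq transcript IDs (16959 of 41012). The build used to design the array and the GRCr8 annotation were not mixed. Genes have 1 value each, their brightest tested probe.

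Members and lists were chosen with earlier results of these data known. Named genes are all 7 erythroid genes with every probe, called genes of the lists, up to 4 of the brightest genes of a list as examples, and the 8 genes most like the mean of the tested members. The number of arrays limits precision, and no spot was saturated. The fit was tested on simulated data. Same-numbered rats of different groups did not deviate together (r from -0.14 to 0.19), so the numbers were not taken as pairs.

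Alternatives were a 75th percentile shift, normexp (offset 50), the authors' values, other filters, outlier spots kept, the methods' t-test, their one-way analysis of variance, no fold minimum, only the compared groups, a replicate block, slide as a random block, the dimmest probe and leaving out each rat.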

Additional observations from a re-analysis of the deposited data

How the results depend on the processing

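The Epb42 difference in TBI was not called after normexp correction, by the adjusted t-test, or, at an unaltered 1.42, with no filter on dim probes or the 2 compared groups alone, and among probes above background in all 9 rats it was not tested, so the count of genes called was 0 in each. With slide as a random block it was 4, against 3 in HSC + TBI and 4 by the F-test. That fit also called 4528 of all 25369 probes in TBI and 2573 in HSC + TBI, where the main fit called 1839 and 820. Only HSC + TBI spans 2 slides, and the estimated correlation was -0.33. By the unadjusted t-test 3 of the 4 genes were called in HSC + TBI. With the replicate number as a block the count in TBI stayed 1, with Slc4a1 (adjusted p = 0.036) in place of Epb42 (adjusted p = 0.057). Leaving out 1 rat gave 0 to 1 in TBI, 0 to 1 in HSC + TBI and 0 to 2 by the F-test. The median difference in TBI was -0.43 with no filter and -1.15 among the probes of all 9 rats, and ran from -0.53 without TBI rat 1 to 0.55 without control 1. The number of genes behind it was 7 with no filter, 3 among the probes of all 9 rats and 6 without TBI rat 1, against 4 otherwise, so these medians are over other genes. That in HSC + TBI was -1.59 among the probes of all 9 rats.

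Of the 43 wider red cell genes, 2 were called in HSC + TBI after a 75th percentile shift. With no filter 2 were called in TBI and 2 in HSC + TBI, and with the compared groups alone 2 in TBI. The unadjusted t-test gave 3 in TBI, 5 in HSC + TBI and 1 between them, the slide block 9, 6 and 5, and the dimmest probe 0 in TBI. Leaving out 1 rat gave 1 to 4 in TBI (4 without TBI rat 3), 1 to 2 in HSC + TBI and 0 to 2 between them. Over all 25369 probes the slide block called 4528, 2573 and 2256. Without TBI rat 3, 2531 of 25725 probes were called in TBI. HSC + TBI minus TBI changed sign for Epb42, to 0.039 with the slide block, and ran from -0.10 to 0.16 as rats were left out. It was 0.014 beside the t-test on either threshold, but as the log2 ratio of mean signals and not the difference of mean log2 levels. For Hbb it ran from -0.57 to 0.15, above 0 without TBI rat 3. Causes were not tested. Signals near background limit Gata1, Klf1, Rhag and Epb42, and 3 rats a group limit all values.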

Other observations

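Heme and hemoglobin clearance genes were read as a further list of 10, all tested and 0 called in any comparison, with 2 at an unadjusted p under 0.05 by limma in each and 0 by the methods' t-test. The plasma scavengers haptoglobin (Hp) and hemopexin (Hpx) differed from control by 0.16 and 0.17 in TBI and by 0.03 and -0.10 in HSC + TBI. Biliverdin reductase Blvrb differed by -0.10 and -0.15, and the heme oxygenase Hmox2 by -0.35 and -0.49 (adjusted p 0.16 and 0.094). In HSC + TBI against TBI, 9 of the 10 differences were below 0, with a list median of -0.21 beside 0.06 over all tested probes.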
